A study of Mus musculus with 225 samples.

Results

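The genes *Ccnd1*, *Ccnd2*, *Ccnd3*, *Cdk4*, *Cdk6*, *Cdkn1a*, *Cdkn1b*, *Myc* and *Mycn* encode the D-type cyclins, their kinases, a pair of CDK inhibitors and a pair of Myc proteins. These 9 genes were taken by symbol from the 23165 genes with read counts. They were followed in single cells of the mouse forelimb at embryonic day 12.5. The cells came from the autopod, from which the hand forms, and from the zeugopod, from which the forearm forms. All embryos were *Hoxd11::GFP* heterozygous on a mixed C57Bl6CBAF1 background and carried a tau-GFP knock-in that inactivates *Hoxd11* on that allele. Only sorted cells with bright GFP entered the capture, so cells that had not transcribed *Hoxd11* were mostly not sampled. Each cell was processed in its own chamber of a Fluidigm C1 chip, and its polyadenylated RNA was sequenced without molecular identifiers. Of 225 captured cells, the 199 kept by the authors were used. The 76 autopod cells were sequenced in runs NXT0072 (59 cells) and NXT0143 (17 cells), and the zeugopod cells in runs NXT0142 (58 cells) and NXT0143 (65 cells). Forelimbs of several embryos were pooled and no label ties a cell to an embryo, so each tissue is 1 sample and no difference between tissues or between groups of cells was tested.

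D-type cyclins bind CDK4 or CDK6, and the complex phosphorylates the retinoblastoma protein, which releases E2F factors and lets a cell pass from G1 into S phase. The inhibitors p21, encoded by *Cdkn1a*, and p27, encoded by *Cdkn1b*, bind these and other CDK complexes. The p27 protein is known for rising in cells that stop dividing, but only mRNA was measured here. Myc and N-Myc are transcription factors that drive growth and division, and N-Myc in limb mesenchyme is needed for limbs of normal size. *Mki67*, which encodes the proliferation antigen Ki-67, and *Col2a1*, which encodes the type II collagen of cartilage, served as reference genes. A cell with *Col2a1* reads was not taken to be a cartilage cell.

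Retained cells had from 186271 to 9437447 reads on genes. The median, in units of 1000000 reads, was 2.83 for autopod and 3.23 for zeugopod cells. Genes detected per cell had a median of 3684 in autopod cells and 3995 in zeugopod cells. At least 1 of the autopod markers *Hoxd13*, *Hoxa13* and *Msx1* had 5 reads or more in 71 autopod and 6 zeugopod cells, and at least 1 of the zeugopod markers *Shox2*, *Meox2* and *Hoxa11* in 10 autopod cells and 83.7% of zeugopod cells. By run, an autopod marker was found in 58 of 59 autopod cells of NXT0072 and in 13 of 17 of NXT0143. The 10 autopod cells with a zeugopod marker were all of NXT0072. No cell had 3 of the muscle, epithelial or endothelial markers or 2 of the macrophage markers, and of 4 blood genes 1 was found in the table. At least 3 of 5 chondrogenic markers were found in 46.1% of autopod and 30.9% of zeugopod cells. The 2 tissues also differed in cells with 2 of 3 interdigit markers (17 autopod cells and 1 zeugopod cell) and with 2 of 3 tendon markers (0 and 17 cells).

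On GRCm38, *Ccnd1* lies on chromosome 7 (144929931 to 144939925, minus strand), *Ccnd2* on chromosome 6 (127125162 to 127152193, minus) and *Ccnd3* on chromosome 17 (47505051 to 47599691, plus). *Cdk4* lies on chromosome 10 (127063534 to 127067920, plus) and *Cdk6* on chromosome 5 (3341485 to 3531008, plus). *Cdkn1a* lies on chromosome 17 (29090976 to 29100727, plus) and *Cdkn1b* on chromosome 6 (134920401 to 134925513, plus). *Myc* lies on chromosome 15 (61985391 to 61990374, plus) and *Mycn* on chromosome 12 (12936093 to 12941914, minus). Exons of *Ccnd1*, *Ccnd3* and *Cdk4* overlap genes of the opposite strand, *Oraov1*, *Bysl* and *Tspan31*. The library kit does not mark strand, so reads in these overlaps cannot be told apart. Over the retained cells, *Bysl* held 25755 reads beside 33161 of *Ccnd3*, *Tspan31* 133041 beside 452238 of *Cdk4*, and *Oraov1* 34095 beside 134498 of *Ccnd1*.

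*Ccnd2* and *Cdk4* were the most abundant members per length in both tissues. The normalized signal is a read count divided by a spike-in size factor and by gene length in kb, with 1 added before division by length, so that genes can be compared. The mean signal per kb in the autopod was 1542 for *Ccnd2*, 1502 for *Cdk4*, 486 for *Ccnd1*, 143 for *Mycn*, 140.1 for *Cdk6*, 80.7 for *Myc*, 30.01 for *Ccnd3* and 22.9 for *Cdkn1b*. In the zeugopod it was 872 for *Ccnd2*, 669 for *Cdk4*, 191 for *Ccnd1*, 71.1 for *Cdk6*, 49.6 for *Myc*, 37.0 for *Cdkn1b*, 9.30 for *Ccnd3* and 6.20 for *Mycn*. With *Mycn* set aside, both orders of these means begin with *Ccnd2*, *Cdk4*, *Ccnd1*, *Cdk6* and *Myc*. *Mycn* stood between *Ccnd1* and *Cdk6* in the autopod and last in the zeugopod. The order was not the same in each run: in autopod cells of NXT0072 *Cdk4* (1732) stood above *Ccnd2* (1263), and in those of NXT0143 *Mycn* (217) and *Cdk6* (168) stood above *Ccnd1* (165) and *Cdkn1b* (22.97) beside *Myc* (22.94). One cell held 96.8% of the *Myc* reads of the autopod. The ranges over cells overlapped between tissues and between neighbours in the order, and several of these means rest on few cells. Means of log2(signal per kb + 1), which weigh the highest cells less, gave another order. In both tissues *Cdk4* then stood above *Ccnd2* (8.07 and 7.73 in the autopod). *Cdkn1b* then stood above *Cdk6* (3.06 and 2.94 in the autopod, 3.66 and 3.09 in the zeugopod). On that scale *Ccnd1*, *Ccnd2* and *Cdk4* were not higher in the autopod (differences of −0.26, −0.27 and −0.18). *Cdkn1a* has no row in the normalized table, and it was followed by reads and by CPM, the reads per 1000000 reads on genes of a cell.

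**Figure D1:**
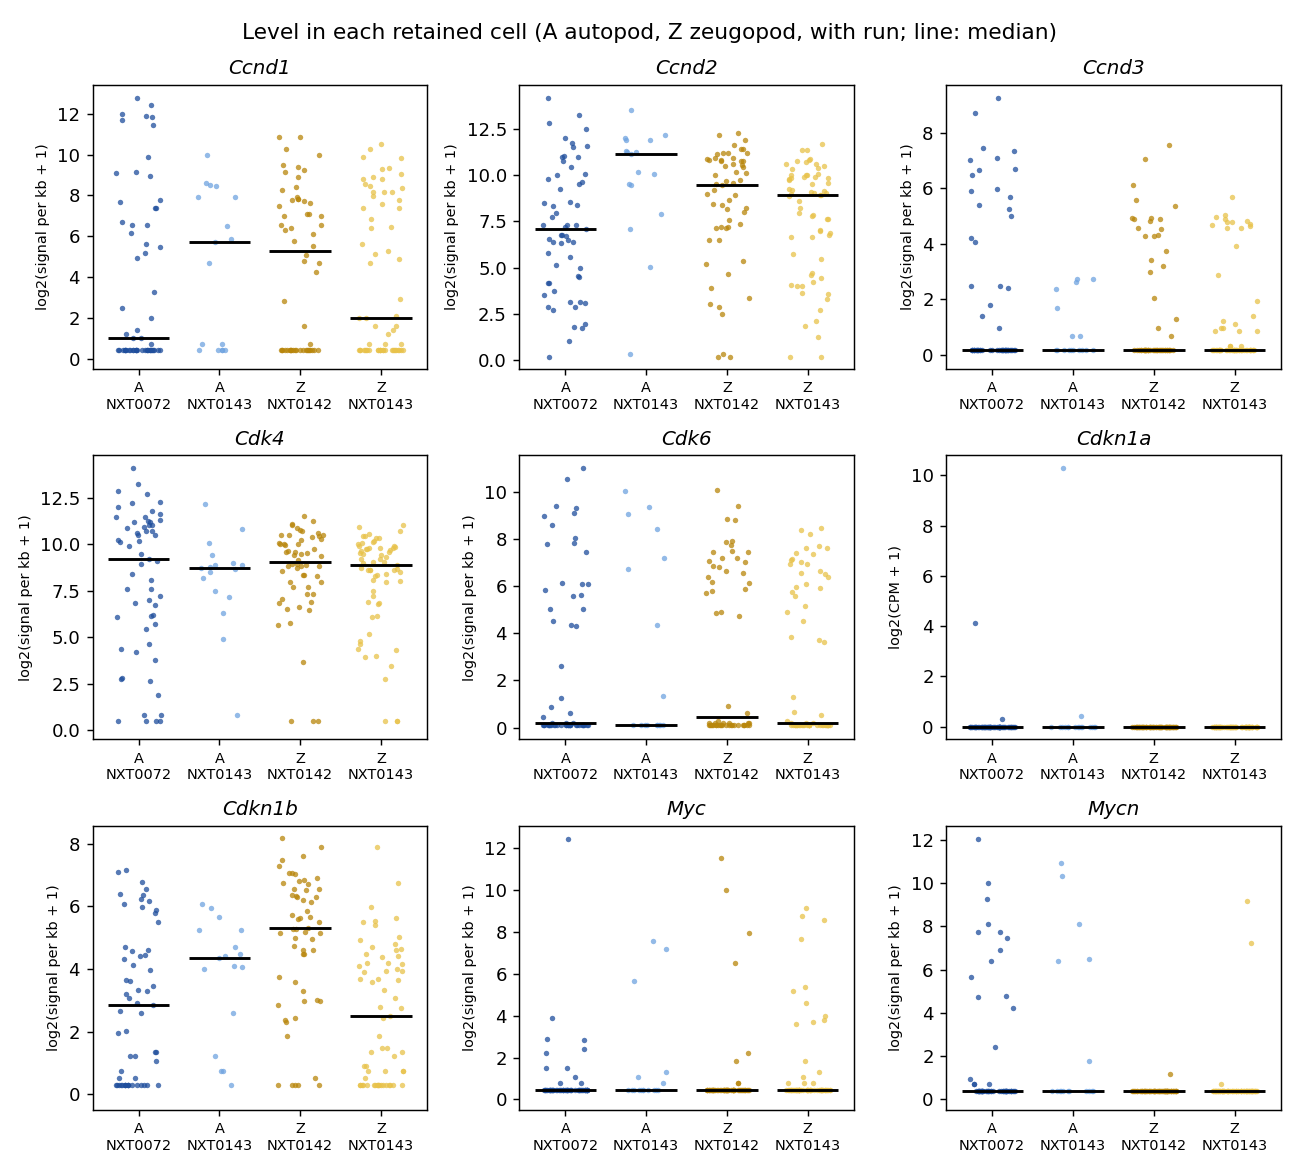
Level of the 9 genes in each retained cell, as log2(normalized signal per kb + 1), or log2(CPM + 1) for *Cdkn1a*, by tissue and run, with a line at the median. *Ccnd2* and *Cdk4* fill a continuous range in all 4 sets of cells, while *Ccnd1*, *Ccnd3*, *Cdk6*, *Myc* and *Mycn* have many cells at the floor. Their other cells lie from just above the floor upward, and *Ccnd3* in autopod NXT0143 does not exceed 5.70 per kb.

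*Ccnd2* was found in nearly every cell, and the other D-type cyclins in about as many cells of either tissue. Detection means at least 5 reads of the gene in the cell, and intervals are 95% Clopper-Pearson intervals, which cover counting error only. *Ccnd2* was detected in 75 of 76 autopod cells (98.7%, 92.9 to 99.97) and 95.9% of zeugopod cells (90.8 to 98.7), with 55 of 58 cells of NXT0142 and 63 of 65 of NXT0143. *Ccnd1* was detected in 37 autopod cells (48.7%, 37.0 to 60.4) and 71 zeugopod cells (57.7%, 48.5 to 66.6). *Ccnd3* was detected in 28 autopod cells (36.8%, 26.1 to 48.7) and 46 zeugopod cells (37.4%, 28.8 to 46.6). For *Ccnd1* and *Ccnd3* the intervals of the tissues overlap. After each cell was thinned to 500000 reads, which left out 4 cells of each tissue as too shallow, *Ccnd1* was detected in 44.4% and 51.3% of cells and *Ccnd3* in 30.6% and 30.3%.

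The level of *Ccnd2* varied widely among the cells of each set. Its signal per kb ranged from 0.115 to 19005 in autopod cells of NXT0072, with a median of 134, and from 0.231 to 12070 in those of NXT0143, with a median of 2298. In zeugopod cells of NXT0142 it ranged from 0.115 to 5111 with a median of 720.0, and in those of NXT0143 from 0.115 to 3313 with a median of 492. The autopod cells of NXT0143 thus had the highest median and those of NXT0072 the lowest, with ranges that overlap. For *Ccnd1* the median signal per kb was 0.993 and 52.3 in the autopod runs NXT0072 and NXT0143, and 38.7 and 2.98 in the zeugopod runs NXT0142 and NXT0143. In every set the lowest *Ccnd1* value was 0.331, the floor for 0 reads, and the highest was 7107, 1002, 1890 and 1489 in the same order.

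Most cells held more than 1 D-type cyclin mRNA, and nearly all combinations included *Ccnd2*. At least 2 of the 3 were detected in 53 of 76 autopod cells (69.7%, 58.1 to 79.8) and in 85 zeugopod cells (69.1%, 60.1 to 77.1). *Ccnd2* alone was detected in 22 autopod and 34 zeugopod cells, *Ccnd1* with *Ccnd2* in 25 and 40, *Ccnd2* with *Ccnd3* in 16 and 15, and all 3 in 12 and 29. No autopod cell held *Ccnd1* or *Ccnd3* without *Ccnd2*, where 0 cells leave room for 3.95% in each such class. In the zeugopod 3 cells did, 1 with *Ccnd1*, 1 with *Ccnd3* and 1 with both. No D-type cyclin was detected in 1 autopod and 2 zeugopod cells. Per length, *Ccnd2* was the highest D-type cyclin in 62 of 75 autopod cells with any (82.7%) and in 83.5% of such zeugopod cells (49 of 56 in NXT0142 and 52 of 65 in NXT0143), and it made up 74.9% and 81.4% of the summed signal of the 3 genes. *Ccnd3* was the highest in 5 autopod cells, all of NXT0072, and in 1 zeugopod cell.

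The kinase genes showed the same split into 1 widespread and 1 restricted member. *Cdk4* was detected in 69 autopod cells (90.8%, 81.9 to 96.2) and 95.1% of zeugopod cells (89.7 to 98.2), with 55 of 58 cells of NXT0142 and 62 of 65 of NXT0143. *Cdk6* was detected in 35 autopod cells (46.1%, 34.5 to 57.9) and 59 zeugopod cells (47.97%, 38.9 to 57.2), with 45.8%, 47.1%, 48.3% and 47.7% in the 4 sets. All 35 autopod cells with *Cdk6*, and 56 of the 59 zeugopod cells with it, also held *Cdk4*. Where *Cdk6* was detected its median signal per kb was 69.04 in the autopod and 100.2 in the zeugopod. Where *Cdk4* was detected its median was 546 and 536. By run the *Cdk6* median was 66.8 and 244.97 in autopod NXT0072 and NXT0143, and 123.7 and 90.9 in zeugopod NXT0142 and NXT0143. The *Cdk4* median was 1116.6, 431.9, 648.8 and 514.7 in the same order. Within NXT0143 the tissues thus stood in the order opposite to the pooled one for both genes. *Cdk4* was the higher of the pair in 92.8% of autopod cells and 89.2% of zeugopod cells with either gene.

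Of the CDK inhibitors, *Cdkn1b* was widespread at a low level and *Cdkn1a* was nearly absent. *Cdkn1b* was detected in 54 autopod cells (71.1%, 59.5 to 80.9) and 93 zeugopod cells (75.6%, 67.05 to 82.9). Its share differed more between the runs of a tissue than between the tissues, at 66.1% and 88.2% in the autopod runs NXT0072 and NXT0143 and at 89.7% and 63.1% in the zeugopod runs NXT0142 and NXT0143. Thinning lowered the shares of *Cdkn1b* to 50% of autopod and 62.2% of zeugopod cells, so its detection moved with depth. Its median signal per kb was 6.15 and 19.3 in the autopod runs and 38.3 and 4.61 in the zeugopod runs, and its highest values were 141.2, 66.1, 288.9 and 240.2.

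*Cdkn1a* was detected in 2 of 76 autopod cells (2.63%, 0.320 to 9.18) and in no zeugopod cell (0 of 58 and 0 of 65), which leaves room for 2.44% of them. The sum of its reads was 2673 in the autopod (exact Poisson interval 2573 to 2776), of which 1 cell of NXT0143 held 2615, at 1240 CPM. Another cell, of NXT0072, had 56 reads at 16.2 CPM, and 2 further autopod cells had 1 read each. None of these 4 cells held *Mki67* reads, where 42.1% of autopod cells had at least 1. The 2 cells with *Cdkn1a* detected had 7 and 6 of 12 genes listed for p53, *Trp53* among them. Those with 1 read, a count that cannot be told from absence, also had 7 and 6. The median was 3 in both tissues and the highest was 7 in the autopod. A relation of *Cdkn1a* to these genes was not tested. Among other CDK inhibitors, *Cdkn1c*, which encodes p57 and was singled out after its values were seen, was detected in 67 autopod cells (88.2%) and 94.3% of zeugopod cells. *Cdkn2c* was detected in 2 autopod cells and *Cdkn2b* in 1 zeugopod cell.

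The Myc genes were found in few cells. *Myc* was detected in 10 autopod cells (13.2%, 6.49 to 22.9) and 18 zeugopod cells (14.6%, 8.91 to 22.1), and at 1 read in 26.3% and 30.1%. A single autopod cell of NXT0072 held 20471 of the 21139 *Myc* reads of the autopod (exact Poisson interval of the sum 20855 to 21426). In the zeugopod the highest cell held 18.9% of 13800 reads (13571 to 14032). The median *Myc* level over the cells with it was 12.7 CPM in the autopod and 46.6 CPM in the zeugopod. By run it was 4.06 CPM (7 cells) and 48.4 CPM (3 cells) in autopod NXT0072 and NXT0143. In zeugopod NXT0142 and NXT0143 it was 258 CPM (6 cells) and 28.4 CPM (12 cells). Within NXT0143 the autopod median was thus the higher, so the pooled order of the tissues did not hold in each run. *Myc* and *Mycn* were detected together in 1 autopod cell, 5.26% of 19 cells with *Mycn*, beside 13.2% of all autopod cells with *Myc*. In the zeugopod it was 1 of 2 cells with *Mycn*, beside 14.6% of all cells with *Myc*. With so few cells, these counts do not show whether the 2 genes avoid each other.

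*Mycn* was the member whose share differed most between the tissues. It was detected in 19 of 76 autopod cells (25%, 15.8 to 36.3) and in 2 zeugopod cells (1.63%, 0.198 to 5.75). These intervals do not overlap, but they cover counting error among cells only. The cells of a tissue come from pooled embryos and are not replicates, so the difference between tissues was not tested. The shares were 23.7% and 29.4% in the autopod runs NXT0072 and NXT0143, 0 of 58 cells in the zeugopod run NXT0142, where up to 5.17% could go unseen, and 3.08% in the zeugopod run NXT0143. Thinned to equal depth, the shares were 25% and 1.68%. The 19 autopod cells had between 5.06 and 913 CPM of *Mycn* with a median of 106.7, and the 2 zeugopod cells had 132 and 515 CPM. The reads summed to 18828 in the autopod (18560 to 19099) and 1558 in the zeugopod (1482 to 1637), and the highest cell held 45.8% and 80.2% of them.

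**Figure D2:**
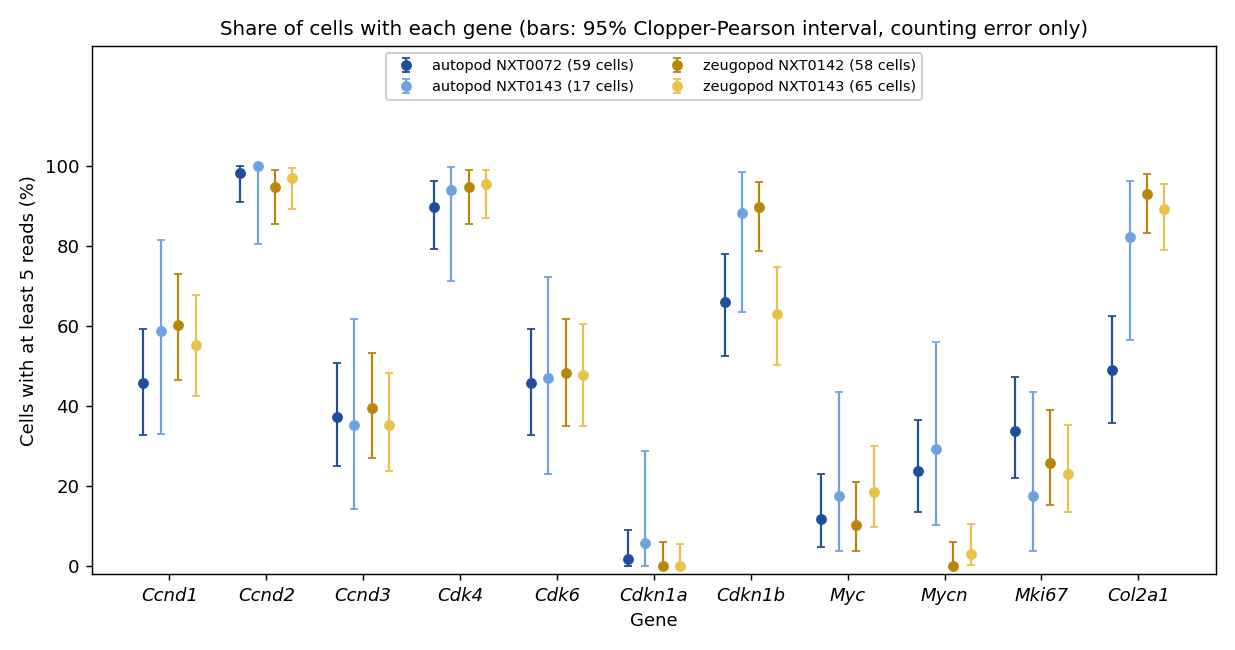
Share of cells with at least 5 reads of each member and of the references *Mki67* and *Col2a1*, in percent, in the 4 sets of cells with 95% Clopper-Pearson intervals. *Mycn* lies at 23.7% and 29.4% in the autopod sets and at 0% and 3.08% in the zeugopod sets, *Cdkn1b* differs between runs of the same tissue, and *Cdk6* lies between 45.8% and 48.3% throughout.

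The tissues were compared by the difference of mean log2(signal per kb + 1), for the 8 members in the normalized table, and a difference of at least 1, a 2-fold change on this scale, was counted. Over all retained cells 1 of 8 members was higher in the autopod by that much, *Mycn*, and none was lower. Over all 10948 genes, 2.83% were higher and 6.26% lower by that much, and the median difference was −0.04. On CPM the median of all genes was −0.12, and the genes past the fold split into 21.04% higher rather than the 31.2% of the normalized signal. *Mycn* differed by 1.65 (mean 2.16 in the autopod and 0.52 in the zeugopod) by 1.61 on CPM and by 0.98, short of the fold, with 10 in place of 1 as the number added. For the other 7 members the difference lay between −0.60 for *Cdkn1b* and 0.35 for *Ccnd3*. *Cdkn1a*, on CPM alone, differed by 0.20. For reference, *Mki67* differed by 0.39 and *Col2a1* by −1.54.

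Because NXT0072 held only autopod cells and NXT0142 only zeugopod cells, each run comparison was also made alone. Within NXT0143, where both tissues were sequenced together, 3 of 8 members were higher in the autopod, against 10.9% of all genes, and 0 lower, against 5.17%. They were *Mycn* (2.21), *Ccnd2* (2.16, means 9.78 and 7.63) and *Cdkn1b* (1.17, means 3.75 and 2.58). On CPM the genes past the fold within NXT0143 split into 54.5% higher rather than 67.8%. Between autopod NXT0072 and zeugopod NXT0142, 1 of 8 members was higher, against 3.27% of all genes, and 2 were lower, against 12.3%. *Mycn* was higher by 1.57, while *Ccnd2* (−1.29, means 7.14 and 8.42) and *Cdkn1b* (−2.01, means 2.86 and 4.87) were lower. *Mycn* therefore kept its direction in both comparisons, and *Ccnd2* and *Cdkn1b* changed theirs. *Ccnd1* (0.64 and −0.76), *Cdk4* (0.16 and −0.49), *Cdk6* (0.52 and −0.54), *Ccnd3* (−0.38 and 0.37) and *Myc* (0.25 and −0.19) also had opposite signs, none past 1. On CPM, *Ccnd2* (1.71 and −1.16) and *Cdkn1b* (1.21 and −2.08) again had opposite signs, while *Cdk4* (−0.26 and −0.35) and *Cdk6* (−0.08 and −0.88) were below 0 in both. The median of all genes was 0.06 within NXT0143 and −0.13 between NXT0072 and NXT0142. As NXT0072 and NXT0142 each held 1 tissue, run and tissue cannot be told apart between them on either scale. The authors also centred the size factors within each batch.

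**Figure D3:**
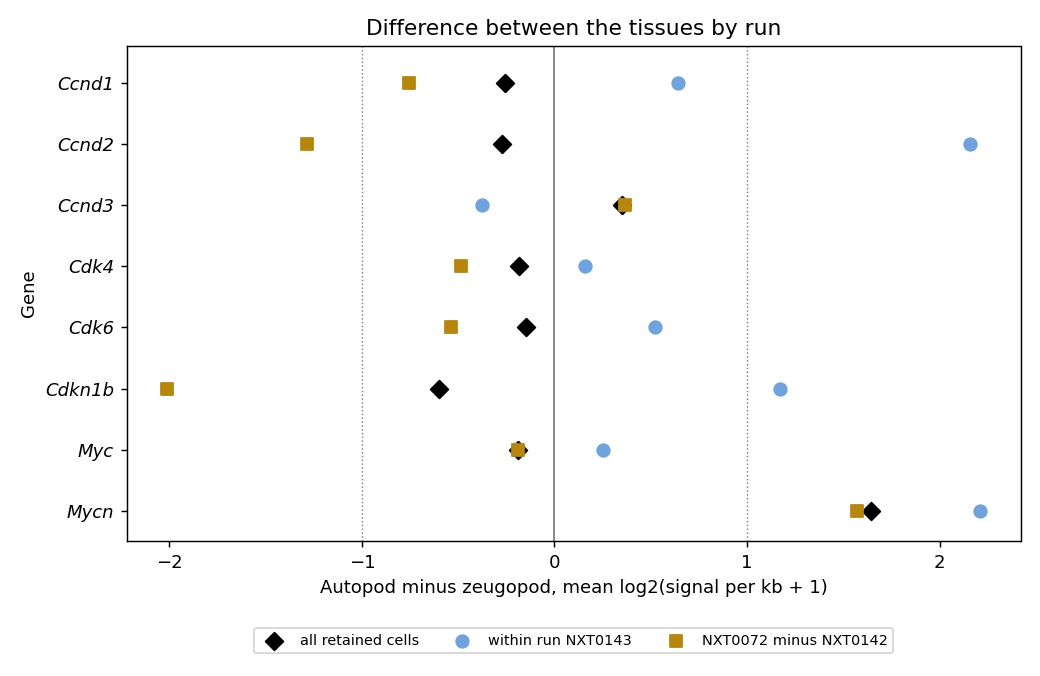
Difference of mean log2(signal per kb + 1), autopod minus zeugopod, of the 8 members in the normalized table, over all retained cells, within run NXT0143, and between autopod NXT0072 and zeugopod NXT0142. *Mycn* lies to the right of 1 in all 3 comparisons, while *Ccnd2* and *Cdkn1b* lie beyond 1 on opposite sides in the 2 run comparisons.

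The autopod cells with *Mycn* were described by other readouts. *Msx1*, a homeobox gene of distal and interdigital mesenchyme, was detected in 16 of the 19 cells with *Mycn* (84.2%, 60.4 to 96.6) and in 30 of the 57 without (52.6%, 38.97 to 66.02). In NXT0072 this was 12 of 14 and 26 of 45 cells, and in NXT0143 4 of 5 and 4 of 12. At least 2 of the interdigit markers *Aldh1a2*, *Msx2* and *Bmp7* were detected in 9 of 19 cells with *Mycn* (47.4%, 24.4 to 71.1) and in 8 of 57 without (14.04%, 6.26 to 25.8), that is 5 of 14 and 6 of 45 in NXT0072 and 4 of 5 and 2 of 12 in NXT0143. *Hoxd13* was detected in 18 of 19 and 47 of 57 cells, and *Col2a1* in 9 of 19 and 34 of 57. *Ccnd1* was detected in 12 of 19 cells with *Mycn* and 25 of 57 without, *Cdk6* in 12 and 23, and *Mki67* in 5 and 18. The cells with *Mycn* had a median of 4202 genes detected and those without 3455, and the part of this difference in the shares was not tested.

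Genes around these members were followed in lists. Of 18 retinoblastoma, E2F and G1 genes, 1 was higher and 1 lower in the autopod over all cells, with a median difference of 0.12 (−0.04 over all genes). Lists were counted over their genes in the normalized table. Of 10 Myc target genes of growth 0 were higher and 1 lower (median 0.07), and of 9 Myc partners and antagonists 0 and 0 (0.14). Of 11 genes listed for p53, *Trp53* among them, 0 were higher and 0 lower (0.15). Of 8 genes for the turnover of D-type cyclins, p27 and Myc it was 0 and 0 (−0.08). Of 3 other CDK inhibitors 0 were past the fold either way (0.58), of 12 S phase genes 0 were higher and 1 lower (0.04), and of 12 genes of G2 and mitosis 1 was higher and 0 lower (0.62). No gene of these 8 lists was past the fold in the same direction in both run comparisons. In the list of 8 immediate early genes, which cells switch on within minutes of a stimulus or of dissociation, 5 were higher and 0 lower (1.28). Its genes *Fos* (3.78 within NXT0143 and 2.58 between the other runs), *Dusp1* (2.68 and 2.51), *Egr1* (3.92 and 1.69) and *Fosb* (2.52 and 1.03) were past the fold in both. *Myc*, itself an early response gene, stood at 0.25 and −0.19 in these comparisons, and the part of the early genes in any difference of a member was not tested.

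*Cdkn1b* was higher in cells with *Mki67* in both tissues, *Ccnd3* and *Cdk4* were higher past the fold in the autopod alone, and *Cdk6* was lower in the zeugopod. Whether the tissues differ in this was not tested. *Mki67* was detected in 23 of 76 autopod cells (30.3%, 20.2 to 41.9) and 30 zeugopod cells (24.4%, 17.1 to 32.95). Cells with it had more genes detected, a median of 4177 against 3455 in the autopod and 4866 against 3919 in the zeugopod. The median difference of all genes was 0.29 and 0.23, and the part of this shift in the members' differences was not tested. All 12 genes of G2 and mitosis, beside *Mki67*, were higher in both tissues, with median differences of 3.36 and 4.96. Of 12 S phase genes 6 were higher and 1 lower in the autopod, and 5 and 0 in the zeugopod. Of the 10 Myc target genes of growth 6 were higher in the autopod (median 1.16) and 3 in the zeugopod (0.39), and none was lower. Over all genes, 19.5% were higher and 1.22% lower in the autopod, and 14.8% and 0.703% in the zeugopod. Lower genes were thus rare among all genes.

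In the autopod 3 of 8 members were higher with *Mki67*, against 19.5% of all genes, and 0 were lower, against 1.22%. *Ccnd3* was higher by 1.52 (means 2.91 and 1.39) and was detected in 12 of 23 cells with *Mki67* and 16 of 53 without. *Cdkn1b* was higher by 1.47 (means 4.08 and 2.61) and was detected in 20 of 23 and 34 of 53 cells. *Cdk4* was higher by 1.08 (means 8.82 and 7.74), and by 0.74 on CPM. In NXT0143 the 3 cells with *Mki67* went the other way for all 3 genes, at −0.88, −0.16 (0.69 on CPM) and −1.11, and in NXT0072, with 20 such cells, the differences were 1.81, 1.95 and 1.54. Within NXT0143, 3 of 8 members were lower, against 19.5% of all genes, *Ccnd1* (−2.59), *Ccnd2* (−2.01) and *Cdk4*, and 3 were higher, against 22.8%, *Mycn* (1.61), *Myc* (1.57) and *Cdk6* (1.11). Where *Mki67* was called at 1 read, *Ccnd3* stood at 0.85 and *Cdk4* at 0.74, short of the fold.

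In the zeugopod 1 of 8 members was higher with *Mki67*, against 14.8% of all genes, and 1 was lower, against 0.703%. *Cdkn1b* was higher by 1.62 (means 4.88 and 3.27), by 1.74 in NXT0142 and by 1.33 in NXT0143. *Cdk6* differed by −1.57 (means 1.90 and 3.48), with −1.36 and −1.81 in the 2 runs and −0.14 where *Mki67* was called at 1 read, and was detected in 9 of 30 cells with *Mki67* (30%, 14.7 to 49.4) and 50 of 93 without (53.8%, 43.1 to 64.2). *Ccnd2* differed by −0.99, short of the fold, and by −1.20 on CPM. *Cdk4* was higher by 0.80. *Ccnd3*, higher in the autopod, differed by −0.06 here. *Ccnd1* (−0.25 in both tissues), *Myc* (−0.29 and −0.18) and *Mycn* (−0.12 and −0.18) lay below the median difference of all genes in both tissues.

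**Figure D4:**
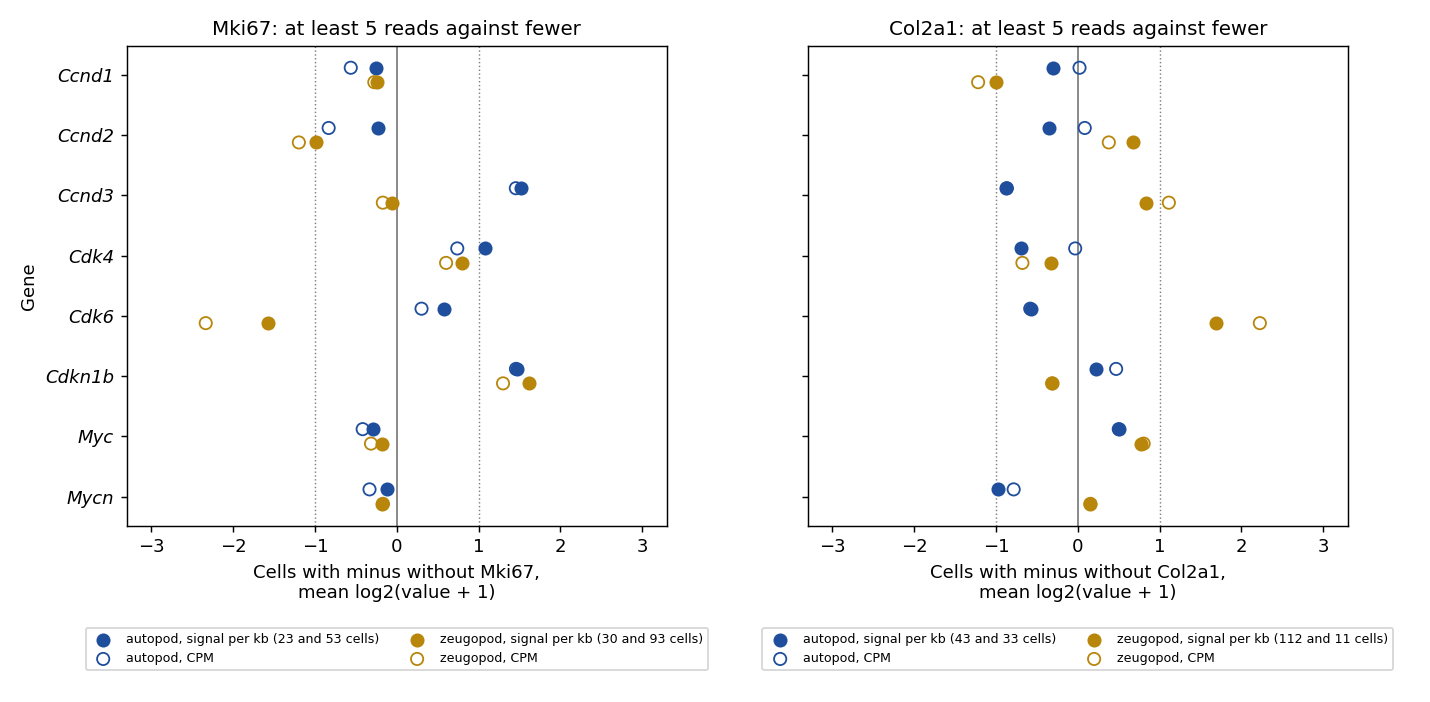
Difference of mean log2(value + 1) between cells with and without *Mki67* (left) and *Col2a1* (right) for 8 members in each tissue, on the normalized signal per kb (filled) and on CPM (open). *Cdkn1b* lies beyond 1 for *Mki67* in both tissues on both scales, and *Cdk6* of the zeugopod lies beyond 1 in opposite directions for *Mki67* and *Col2a1*.

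With *Col2a1*, *Cdk6* was higher in the zeugopod and no member passed the fold in the autopod. *Col2a1* was detected in 43 of 76 autopod cells (56.6%, 44.7 to 67.9) and in 91.1% of zeugopod cells (84.6 to 95.5), with 54 of 58 cells of NXT0142 and 58 of 65 of NXT0143. Only 11 zeugopod cells were therefore without it. At least 3 of 5 chondrogenic markers were found in fewer cells, 46.1% of autopod and 30.9% of zeugopod cells. The *Col2a1* classes are thus not cartilage against other cells. In the autopod 0 of 8 members were higher with *Col2a1*, against 1.53% of all genes, and 0 lower, against 14.6%. The median of all genes was −0.23, and on CPM the genes past the fold split into 23.7% higher rather than 9.51%. *Mycn* came nearest, at −0.97 (means 1.74 and 2.71), with −1.18 in NXT0072 and −1.85 in NXT0143, where 3 cells lacked *Col2a1*. Within NXT0143 alone 0 of 8 members were higher with *Col2a1*, against 12.2% of all genes, and 5 lower, against 34.7%, at −7.16 for *Cdk6*, −3.20 for *Cdk4*, −1.85 for *Mycn*, −1.70 for *Ccnd2* and −1.23 for *Myc*. Over both runs *Ccnd3* differed by −0.87 and *Cdk4* by −0.70, the latter by −0.03 on CPM.

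In the zeugopod 1 of 8 members was higher with *Col2a1*, against 6.82% of all genes, and 0 were lower, against 9.73%. *Cdk6* was higher by 1.69 (means 3.24 and 1.55) and was detected in 50% of cells with *Col2a1* (40.4 to 59.6) and 3 of 11 without (6.02 to 60.97%), intervals that overlap. It was higher by 1.51 in NXT0142, where 4 cells lacked *Col2a1*, and by 1.72 in NXT0143, where 7 did, and by 0.34 over both runs where *Col2a1* was called at 20 reads. *Ccnd1* differed by −0.996, just short of the fold, by −1.22 on CPM and by 1.56, with the sign turned, where *Col2a1* was called at 1 read, and *Ccnd3* was higher by 0.83, or 1.11 on CPM. *Myc* was detected in 16.1% of cells with *Col2a1* and 0 of 11 without, where the interval reaches 28.5%, and its difference was 0.78. *Mki67* itself was detected in 21.4% of the cells with *Col2a1* and in 6 of 11 without, so the *Col2a1* classes of the zeugopod also differed in this reference.

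Spearman rank correlations were computed within each of the 4 sets, on 59, 17, 58 and 65 cells, as a description. The cells of a set share tissue, run and pooled embryos, and on the normalized scale each cell's values share 1 size factor. Of 64 correlations of the 8 members with *Mki67* or *Col2a1*, 9 reached 0.3 in size. Most of these were in the 17 autopod cells of NXT0143, among them *Cdk4* (−0.57) and *Cdk6* (−0.50) with *Col2a1*. So small a set gives imprecise values, and the share of all genes that reach this size is not given. *Cdkn1b* with *Mki67* had the highest mean rho, 0.31, at 0.48, 0.04, 0.48 and 0.25 in autopod NXT0072 and NXT0143 and zeugopod NXT0142 and NXT0143. It was 0.46, 0.19, 0.35 and 0.22 on CPM, and 0.44, 0.01, 0.46 and 0.19 given the genes detected. *Mycn* with *Col2a1* was −0.25 and −0.50 in the autopod sets and −0.13 and 0.02 in the zeugopod sets, where few cells held *Mycn*. *Ccnd2* with *Col2a1* reached 0.40 in zeugopod NXT0143, beside 0.03 in zeugopod NXT0142.

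Among the members, the highest mean rho were those of *Ccnd1* with *Ccnd2* and with *Cdk6*, and allowing for the number of genes detected lowered both in the autopod sets. *Ccnd1* with *Ccnd2* was 0.63 and 0.60 in the autopod sets and 0.26 and 0.09 in the zeugopod sets, or 0.43, 0.78, 0.19 and −0.00 on CPM and 0.42, 0.35, 0.23 and 0.06 given the genes detected. *Ccnd1* with *Cdk6* was 0.53, 0.40, 0.34 and 0.12, or 0.42, −0.04, 0.35 and 0.13 given the genes detected, and *Cdk6* was detected in 26 of 37 autopod and 42 of 71 zeugopod cells with *Ccnd1*. *Ccnd1* with the mean of the 12 S phase genes was 0.52, 0.36, 0.36 and 0.33, 0.31, 0.21, 0.31 and 0.27 on CPM, and 0.29, −0.16, 0.34 and 0.24 given the genes detected. With the mean of 12 genes of G2 and mitosis it was 0.07, −0.18, 0.05 and −0.04, or −0.10, −0.29, −0.02 and −0.07 on CPM and −0.21, −0.57, −0.08 and −0.15 given the genes detected. *Ccnd2* with the S phase mean was 0.51, 0.70, 0.34 and 0.38, or 0.25, 0.31, 0.14 and 0.20 on CPM and 0.14, 0.35, 0.24 and 0.38 given the genes detected. With the G2 and mitosis mean it was 0.05, −0.05, −0.06 and −0.09, or −0.16, −0.34, −0.23 and −0.21 on CPM and −0.39, −0.53, −0.33 and −0.17 given the genes detected. *Ccnd3* with the S phase mean was 0.36, −0.52, 0.16 and 0.34, so the D-type cyclins were not alike in this. *Cdk4* had a mean rho of 0.47 with the S phase mean and 0.32 with the G2 and mitosis mean, above 0 in all 4 sets for both. These were 0.23 and 0.13 on CPM, and 0.15 and 0.06 given the genes detected. *Cdkn1b* with *Ccnd1*, *Ccnd2*, *Cdk4* and *Cdk6* had mean rho between −0.04 and 0.05, and between −0.15 and −0.06 on CPM. The 2 Myc genes had a mean rho of 0.00 with each other.

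**Figure D5:**
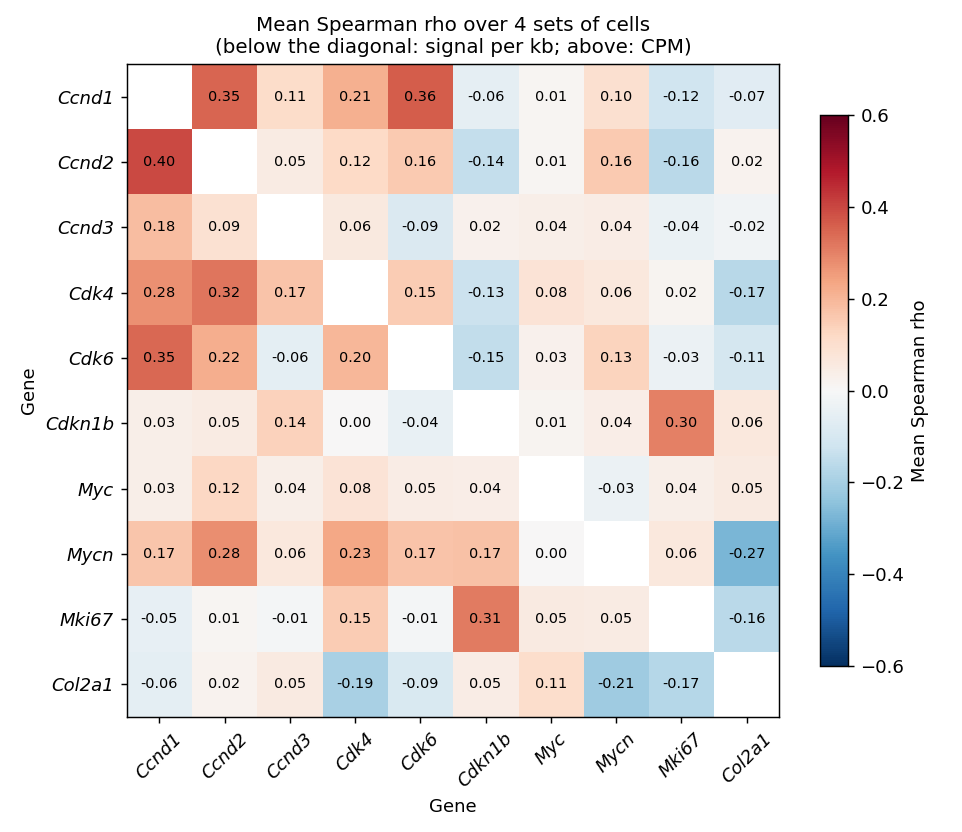
Mean Spearman rho over the 4 sets of cells for each pair of the 8 members, *Mki67* and *Col2a1*, on the normalized signal per kb below the diagonal and on CPM above it. The largest values below the diagonal are 0.40 for *Ccnd1* with *Ccnd2*, 0.35 for *Ccnd1* with *Cdk6*, 0.32 for *Ccnd2* with *Cdk4* and 0.31 for *Cdkn1b* with *Mki67*.

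The genes most like each member were sought among 4110 genes with 5 reads in at least 25% of retained cells, by mean rho over the 4 sets, for the 6 members that passed this limit themselves. For *Ccnd1* they were *Prickle1* (0.41), *Ccnd2* (0.40) and *Tor1b* (0.40). For *Ccnd2* they included *Eef1a1* (0.51) and *Psma7* (0.50), and for *Cdk4* *Sumo3* (0.49) and *Cfl1* (0.47), with lower values on CPM, at 0.28 and 0.28 and at 0.32 and 0.18. For *Ccnd3* they were *Zfp444* (0.38), *Stt3b* (0.38) and *2700060E02Rik* (0.35), and for *Cdk6* *4933434E20Rik* (0.35), *Ccnd1* (0.35) and *Rest* (0.34). For *Cdkn1b* they were *Pik3ca* (0.40), *Pdha1* (0.37) and *H2afx* (0.37), or 0.30, 0.23 and 0.21 on CPM. *Ccnd1* was thus among the 3 nearest genes of *Cdk6*, and *Ccnd2* among those of *Ccnd1*. In zeugopod NXT0143 these pairs had rho of 0.12 and 0.09. The mean weighs each set alike, and some values were high mainly in the 17 autopod cells of NXT0143. There *Zfp444* had 0.80 with *Ccnd3*, beside 0.04 in zeugopod NXT0143, and *Rest* had 0.84 with *Cdk6*, beside 0.11 in autopod NXT0072.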

How the data were processed

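The authors mapped the reads with bowtie2 to mm10 (GRCm38) and deposited raw read counts per gene in 225 cells. The second deposited table holds a normalized signal of 199 cells and 10948 genes. Its counts were scaled by spike-in size factors (with the mean set per batch) and by length. A gene with 0 reads lies at 1 divided by its length in kb. The spike-in counts were not used. From the counts, CPM, shares of cells with 5 reads or more and exact binomial and Poisson intervals were computed, and counts were thinned to 500000 reads per cell (seed 42). Beside a count of 0 stands the share of 3 cells. Differences are of mean log2(value + 1), and 8 of 9 members have normalized values. Cells were not replicates, so no test was made, and no 2 cells had identical counts. No doublet caller was run, since each C1 chamber was meant to hold 1 cell. The members and lists were chosen with earlier results of these data known, and the means over S phase and G2 and mitosis genes were added later. Named genes outside the members were those past the fold in both run comparisons (at most 4 a list) and the 3 most like each member, of which some are not reported here. Alternatives were CPM, pseudocounts of 0.1 and 10, other read limits, thinning, single runs and all captured cells with 100000 reads. Calculations used Python with numpy, pandas and scipy and were tested on simulated data. Gene positions are from GENCODE M21.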

Additional observations from a re-analysis of the deposited data

Results flagged for a closer look

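The 26 captured cells without normalized values enter no comparison. Of the 20 such autopod cells, 5 had at least 5 reads of a member (25%, 8.66 to 49.1), above the share of 15% that a count of 0 allows. All 5 held *Ccnd2*, none held *Mycn* or *Cdkn1a*, and the median of reads on genes in the 20 cells was 4952. Of the 6 such zeugopod cells, 1 had at least 5 reads of a member.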

How the results depend on the processing

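No paired analysis was possible because no test was made and each tissue is 1 pooled sample. The 2-fold counts of members rest on 1 to 3 genes and moved easily. For most settings below the share of all genes past the fold is not given, so the counts describe the members alone. With a pseudocount of 10, 0 members were higher in the autopod, 0 were higher with *Mki67* in the autopod, 0 were lower with *Mki67* in the zeugopod and 0 were higher with *Col2a1* in the zeugopod. With a pseudocount of 0.1, on CPM, after thinning, and within NXT0142 alone, 2 members were lower with *Mki67* and 2 higher and 1 lower with *Col2a1* in the zeugopod. The pseudocount of 0.1 also gave 2 members lower with *Col2a1* in the autopod. With a limit of 1 read, 1 member was higher with *Mki67* in the autopod, 0 were lower with it in the zeugopod, 4 were lower with *Col2a1* in the autopod and 3 higher with it in the zeugopod. With a limit of 20 reads, 2 were lower with *Mki67* in the zeugopod, 3 were lower with *Col2a1* in the autopod, and 0 were higher and 1 lower with it in the zeugopod. Within NXT0143, 3 members were higher in the autopod, 3 were lower (and 3 higher) with *Mki67* and 5 lower with *Col2a1* in the autopod, and 2 were higher and 1 lower with *Col2a1* in the zeugopod. Within NXT0072, 1 was lower with *Col2a1*, and between NXT0072 and NXT0142, 2 were lower in the autopod. Of the differences reported as past the fold, 3 changed sign, *Ccnd3* (−0.88), *Cdk4* (−1.11) and *Cdkn1b* (−0.16) with *Mki67* in the autopod cells of NXT0143. The cause was not tested in any of these. Of 312 values of differences under alternatives, 272 kept their sign and 223 both their sign and their side of the fold. Of the 40 that changed sign, 7 were past the fold under the alternative, 6 of them within NXT0143 and 1 with the limit of 1 read. *Mycn* between the tissues was 0.98 with a pseudocount of 10. Of 90 shares of cells, 78 stayed within the interval of the reported one. The share of cells with at least 2 D-type cyclins lay between 58.3% and 76.5% in the autopod and between 61.8% and 76.4% in the zeugopod. Depth limits what is said of *Cdkn1b*, *Myc* and *Cdkn1a*, for which a read count below 5 cannot be told from absence.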
